A study of Homo sapiens with 2 samples.

Results

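This account covers 10 genes that mark or govern the epithelial state, measured in the established human gastric cancer line SNU216: the epithelial-mesenchymal transition (EMT) factors SNAI1, SNAI2, ZEB1, ZEB2 and TWIST1, the mesenchymal filament gene VIM, the splicing regulators ESRP1 and ESRP2, and the epithelial transcription factors GRHL2 and OVOL1. They were taken by symbol from the platform annotation, which gave 13 probes for them out of 47323 probes and 20046 named genes on an Illumina expression BeadChip. The knockdown cells were a line in which TEAD4, the DNA-binding partner of the Hippo pathway cofactors YAP and TAZ, was reduced, and the control cells were a line made with a non-silencing short hairpin RNA. The labels do not say how many hairpins were used or whether a line was 1 clone. Each line was measured on 1 array of total RNA. There were no replicates, so no difference has a replicate check, no test between the lines was possible, and effects of the knockdown cannot be told apart from differences between cultures or arrays.

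EMT is a change in which epithelial cells lose their junctions and take on traits of migrating mesenchymal cells. The SNAI and ZEB factors are zinc finger repressors that bind E-box sequences and turn down epithelial genes such as the cadherin gene CDH1, while TWIST1 is a basic helix-loop-helix factor with a similar outcome. ESRP1 and ESRP2 are RNA-binding proteins that keep epithelial forms of exons in genes such as FGFR2 and CD44. GRHL2 and OVOL1 are transcription factors that sustain the epithelial program and, in part, oppose the ZEB genes.

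By its brightest probe the targeted gene TEAD4 had a normalized log2 signal of 7.55 in the knockdown and 10.11 in the control, 5.89-fold lower in the knockdown. A dimmer TEAD4 probe, detected only on the control array, read it at least 1.17-fold lower, and 1 more probe was detected on neither array. On the knockdown array 18648 of 47323 probes (39.4%) had a detection p-value under 0.01, against 18948 (40.0%) on the control array. The labelled epithelial cell type matched its markers: EPCAM, CDH1, KRT8, KRT19 and KRT7 were detected on both arrays, while the 2 KRT18 probes were detected on neither.

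Of the 10 genes, 6 were detected on both arrays (SNAI2, TWIST1, VIM, ESRP1, GRHL2 and OVOL1) and 4 on neither (SNAI1, ZEB1, ZEB2 and ESRP2). SNAI2 and VIM were higher in the knockdown by every probe, SNAI2 by 2.18-fold and 2.82-fold and VIM by 1.62-fold and 2.13-fold. In such bulk RNA more cells expressing a gene and more of its RNA per cell cannot be told apart. The other 4 detected genes differed little, between a log2 difference of -0.27 for GRHL2 and 0.17 for OVOL1. Differences are the normalized log2 signal of the knockdown minus that of the control. By the brightest probe of each gene, 2 of the 6 detected genes were higher by 1.5-fold or more and 0 were lower by that much. The shares were 7.24% and 9.20% of the 11720 genes detected on at least 1 array. Of the 10717 genes detected on both arrays, as these 6 were, 6.00% were higher and 7.21% lower by that much. At the 2-fold threshold the count was 1 of 6, SNAI2, against 1.81% of detected genes higher and 2.34% lower, together 4.15%. The median difference of the 6 genes was 0.12, beside -0.035 over all detected genes.

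**Figure D1:**
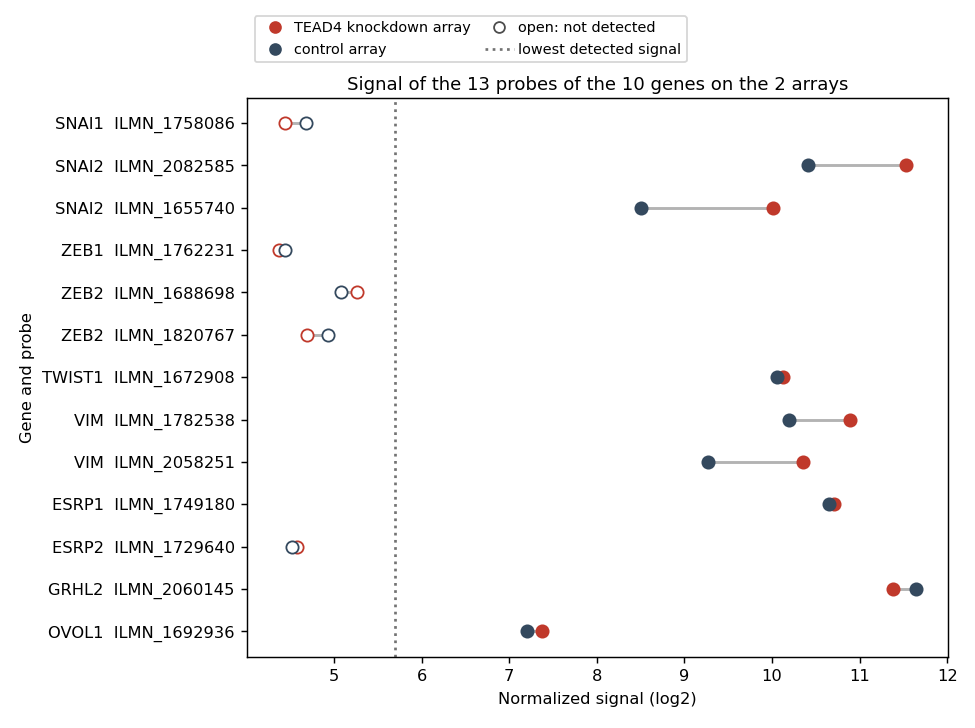
Normalized log2 signal (horizontal axis) of the 13 probes of the 10 genes on the TEAD4 knockdown array (red) and the control array (dark blue), with open circles for probes that were not detected and a dotted line at the lowest detected signal. The probes of SNAI2 and VIM lie further right on the knockdown array, TWIST1 and ESRP1 nearly coincide on the arrays, and SNAI1, ZEB1, ZEB2 and ESRP2 lie left of the line.

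Of the SNAI and ZEB repressors, SNAI2, also called Slug, was the one with a detected probe. Its brighter probe, ILMN_2082585, had a deposited signal of 2826 in the knockdown and 1388 in the control, and a normalized log2 signal of 11.53 in the knockdown and 10.41 in the control, a difference of 1.12. Its other probe, ILMN_1655740, had a deposited signal of 975 in the knockdown against 362 in the control, a difference of 1.498. Both probes thus read SNAI2 more than 2-fold higher in the knockdown, and both are annotated to the same transcript. Only 10 of the 2497 genes with 2 probes detected on both arrays (0.400%) were at least 2-fold higher by their 2 brightest probes, and 132 of the 11720 detected genes (1.13%) were at least as far up as SNAI2 by the brightest probe. The deposited normalized table, a further version of the same arrays, gave SNAI2 differences of 1.07 and 1.37.

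SNAI1, the paralog of SNAI2, was not detected: its probe had a deposited signal of -21.1 in the knockdown, at a detection p-value of 0.965, and -3.33 in the control, at 0.556. Signals below 0 lie under the background level that had been subtracted before deposit. The lowest signal of any detected probe was 35.3 on the knockdown array and 35.2 on the control array. The SNAI1 probe thus read below what these arrays could measure, which does not show that its transcript was absent. With 1 probe, a low level and a probe that reads its transcript poorly cannot be told apart. The same limit holds for ZEB1 and ESRP2.

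The ZEB genes were likewise below detection. ZEB1 had a deposited signal of -29.6 in the knockdown and -21.8 in the control. The brighter ZEB2 probe had 20.5 in the knockdown, at a detection p-value of 0.089, and 14.4 in the control, at 0.166. The other ZEB2 probe had -2.56 in the knockdown and 8.73 in the control. No probe of either gene would count as detected at a threshold of 0.05, and no fold is given for them.

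RefSeq promoter windows of GRCh38.p14 run from 250 bases before to 50 bases after an annotated start. Those of ZEB1, ZEB2 and VIM among the 10 genes are described here. Windows of the other genes, SNAI2 among them, are not reported here. The windows were searched on both strands for the TEAD motif GGAATG and for the E-box CACCTG. Of all 35116 such windows, 14.0% held the TEAD motif and 20.6% the E-box. ZEB1 has 7 windows, of which 1 held the TEAD motif and 2 the E-box, and the single ZEB2 window held neither. The window shown here is the ZEB1 window with both motifs (chr10:31318167-31318466, plus strand), with the matches in capitals. The E-box begins 57 bases before the start and the TEAD match, written as CATTCC on this strand, begins 1 base before it. A match is a string of letters and not a measured binding site.
ZEB1: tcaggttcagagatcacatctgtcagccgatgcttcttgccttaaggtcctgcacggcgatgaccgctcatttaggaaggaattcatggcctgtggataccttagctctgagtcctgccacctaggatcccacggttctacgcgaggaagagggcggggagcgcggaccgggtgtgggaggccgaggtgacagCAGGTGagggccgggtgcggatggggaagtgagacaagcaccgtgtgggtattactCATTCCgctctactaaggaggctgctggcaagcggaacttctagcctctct

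TWIST1 was detected at nearly equal levels. Its probe had a deposited signal of 1058 in the knockdown and 1089 in the control, which differ in the other direction from the normalized difference of 0.067, and the size is far below the spread between probes of a gene. That spread was measured over the 2497 genes with 2 probes detected on both arrays: the standard deviation (SD) of a log2 difference was 0.31 per probe, and that of the gap between 2 probes of a gene was 0.43. It covers differences between probes of the same arrays, which may be annotated to different transcripts of a gene, so it is not technical alone. It holds no difference between cultures.

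VIM encodes vimentin, the intermediate filament of mesenchymal cells and a common readout of EMT. Its brighter probe, ILMN_1782538, had a deposited signal of 1812 in the knockdown and 1204 in the control, a difference of 0.69. Its other probe, ILMN_2058251, had 1246 in the knockdown and 624 in the control, a difference of 1.09. The 2 VIM probes therefore differed from each other by less than the SD of the gap between probes, as did the 2 SNAI2 probes. Among genes with 2 probes detected on both arrays, 2.52% were at least 1.5-fold higher by their 2 brightest probes, as VIM and SNAI2 were. By its brightest probe VIM stayed under 2-fold, and 587 of the 11720 detected genes (5.01%) were at least as far up. Counted by probe, 3 of the 8 detected probes of the 10 genes were at least 2-fold higher, against 2.47% of the 15193 detected probes with a gene symbol.

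The VIM promoter window (chr10:17227991-17228290, plus strand) is shown because VIM was 1 of the 2 genes that stood apart. It held neither the TEAD motif nor the E-box, so it has no capitals, and this says only that these letters are not in this window.
VIM: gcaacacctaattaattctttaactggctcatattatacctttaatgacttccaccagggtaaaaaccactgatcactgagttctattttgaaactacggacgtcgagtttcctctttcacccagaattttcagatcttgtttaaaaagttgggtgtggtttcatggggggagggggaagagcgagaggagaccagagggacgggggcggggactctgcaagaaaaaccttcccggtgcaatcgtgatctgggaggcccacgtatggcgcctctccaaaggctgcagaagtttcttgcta

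Vimentin is also made by fibroblasts and leukocytes, so their markers are given beside it. Of 8 fibroblast markers, 2 were detected in the knockdown and 3 in the control, and their summed normalized signal was 410 in the knockdown and 932 in the control. PDGFRA, PDGFRB, THY1 and FAP were not detected on either array. Of these sums 109 in the knockdown and 106 in the control came from the 4 genes detected on neither array. The matrix protein genes LUM (at least 2.41-fold lower) and DCN (at least 1.21-fold lower) were lower in the knockdown by their brightest probes. These probes were detected only on the control array, and the other LUM and DCN probes were detected on neither array. FBLN1, another matrix protein gene, gave more of each fibroblast sum than any other marker, with a deposited signal of 153 in the knockdown and 606 in the control. It was 3.48-fold lower by its brightest probe and 1.92-fold lower by its next probe. A dim FBLN1 probe, detected only on the control array, differed by -0.45. The collagen gene COL6A3 was at least 1.14-fold higher. Of 7 leukocyte markers with a probe, 3 were detected in the knockdown and 2 in the control, with a summed signal of 2103 in the knockdown and 1103 in the control. That sum was mostly CD68, a lysosomal protein gene, which was 2.15-fold higher in the knockdown by its brightest probe and 1.58-fold higher by its next. MS4A1 was at least 1.04-fold higher and LYZ, the lysozyme gene, 1.11-fold lower, while the leukocyte genes PTPRC, CD3E, CD14 and FCGR3A were not detected on either array. Of 7 endothelial markers only the junction gene ESAM was detected, 1.81-fold lower in the knockdown, with a summed signal of 276 in the knockdown and 390 in the control, of which 159 in the knockdown and 177 in the control came from the 6 genes detected on neither array. The 6 epithelial markers summed to 88216 in the knockdown and 90019 in the control, mostly from KRT8, KRT19, EPCAM and CDH1. The much dimmer KRT7, a simple-epithelium keratin gene, was 1.66-fold lower, with a deposited signal of 199.5 in the knockdown and 366 in the control. The part of any other cell type in the VIM difference was not tested.

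Of the splicing regulators, ESRP1 was detected and ESRP2 was not. ESRP1 had a deposited signal of 1595 in the knockdown and 1641 in the control, and a normalized difference of 0.056, which is well inside the spread between probes and opposite in sign to the signals before normalization. ESRP2 had -9.94 in the knockdown and -14.6 in the control, both at background. Each gene has a single annotated probe, so neither value has a second reading.

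GRHL2, a grainyhead factor that holds epithelial enhancers open, had a deposited signal of 2541 in the knockdown and 3324 in the control. Its normalized difference of -0.27 was 1.20-fold lower in the knockdown and smaller than the SD per probe of 0.31. A difference at least as far down was seen in 3005 of the 11720 detected genes (25.6%). OVOL1, a zinc finger repressor of mesenchymal genes, had 146 in the knockdown and 134 in the control, a difference of 0.17 that is likewise smaller than that SD. Neither difference is larger than the spread between probes, and with 1 array per line a small change would not be measurable.

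**Figure D2:**
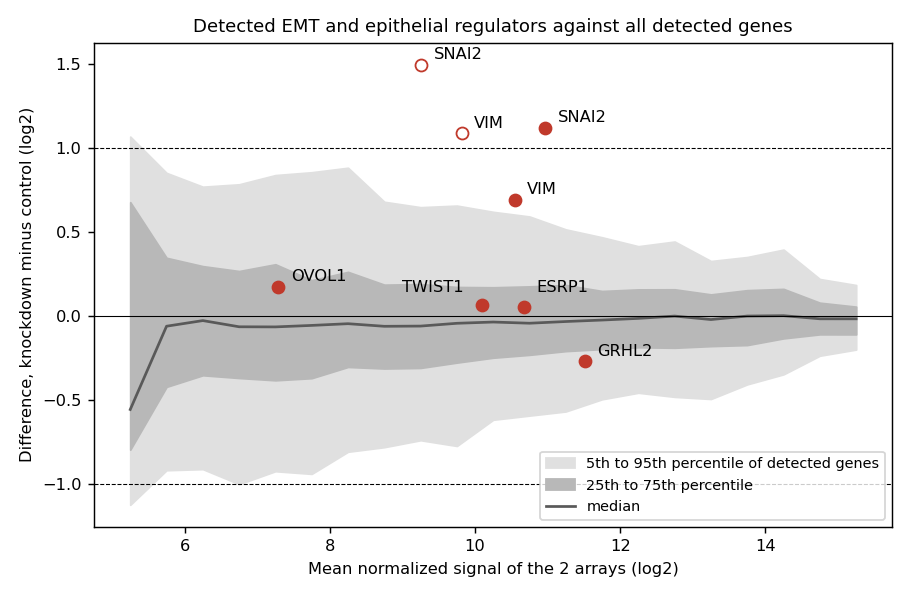
Log2 difference, knockdown minus control (vertical axis), of the 8 detected probes against their mean normalized log2 signal (horizontal axis), with filled points for the brightest probe of a gene and open points for the other probe. Grey bands give the middle and the wider percentile ranges named in the legend for all detected genes at that signal, and the probes of SNAI2 and VIM lie above both bands while TWIST1, ESRP1 and OVOL1 lie within the inner band.

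The further genes of this circuit are described by 8 lists. The counts past 1.5-fold in these lists are over genes detected on both arrays, and are to be read beside the 6.00% of 10717 such genes that were higher and the 7.21% that were lower by that much. Medians are over all detected genes of a list. Where a gene was detected on 1 array alone, its fold is given as "at least": the signal on that array is set against the lowest detected signal of the other array, or against the probe's own signal there where that is larger. Listed genes without a probe named in the annotation were not analysed here.

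Of 14 other EMT transcription factors, 6 were detected, and 6 more had a probe but no detected signal, among them TWIST2, SNAI3, PRRX1 and TCF4. Only FOXC2, a forkhead factor, was past 1.5-fold, at 1.91-fold lower in the knockdown, with a deposited signal of 56.5 in the knockdown and 128 in the control. In the deposited normalized table its difference was -0.54, short of 1.5-fold. The list's median difference was -0.11. 3 of the 6 genes were above 0 and 3 below. SOX9, a high mobility group factor (0.26), ETS1, a winged helix-turn-helix factor (0.24), the zinc finger factor gene ZNF281 (-0.25) and SOX4, another high mobility group factor (-0.24), are examples chosen after their values were seen. These are readings of the brightest probes, and another ETS1 probe, detected on both arrays, differed by 0.51. With SNAI2 and TWIST1 counted, 8 EMT transcription factors were detected, and 1 of these, SNAI2, was at least 1.5-fold higher.

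Of 14 other epithelial transcription factors, 9 were detected, 8 of them on both arrays, and the median was -0.25. Of the 8 genes 1 was at least 1.5-fold lower and 0 were higher. That gene, ELF5, an ETS-family factor of glandular epithelium, was 3.29-fold lower, with a deposited signal of 152 in the knockdown and 571 in the control. KLF5, a zinc finger factor of gut epithelium, was detected only on the control array and at least 1.24-fold lower, with -0.36 in the deposited normalized table. OVOL2 and GRHL1, paralogs of OVOL1 and GRHL2, differed less than ELF5, by -0.25 and -0.47. GRHL1 had a deposited signal of 67.5 in the knockdown and 103 in the control. GRHL3, another paralog of GRHL2, was not detected. Of the 9 detected genes of the list 7 were below 0 and 2 above.

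Among the epithelial genes that SNAI and ZEB factors repress, differences went both ways. Of 25 genes 23 were detected, 2 were past 1.5-fold upward and 2 past it downward, and the median was -0.015. CDH1, the E-cadherin gene and the best known gene repressed by SNAI2, was 1.58-fold higher in the knockdown, with a deposited signal of 13235 in the knockdown and 8869 in the control. SPINT1, an inhibitor of epithelial serine proteases, was 1.70-fold higher by its brightest probe, and its other detected probe differed by -0.098. The tight junction genes CLDN1 and CLDN3 were 1.84-fold and 1.62-fold lower. LLGL2, a polarity gene, was read at 0.50 by its brightest probe, while another, detected in the control alone, was at least 1.02-fold lower. EPCAM (-0.20), KRT8 (-0.14) and KRT19 (-0.044), examples chosen after their values were seen, were near equal. SNAI2 and CDH1 were thus both higher on the same array.

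Mesenchymal structural genes other than VIM were mostly below detection. Of 21 genes with a probe 6 were detected, and CDH2, the N-cadherin gene, and FN1, the fibronectin gene, were detected on neither array. Of the 5 genes detected on both arrays 0 were at least 1.5-fold higher and 0 lower. The collagen gene COL5A1 was detected only on the control array and at least 1.07-fold lower, with -0.42 in the deposited normalized table. The list's median was -0.30. LOX, a collagen cross-linking enzyme (0.48), and S100A4, a calcium-binding protein of motile cells (-0.31), are examples chosen after their values were seen.

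**Figure D3:**
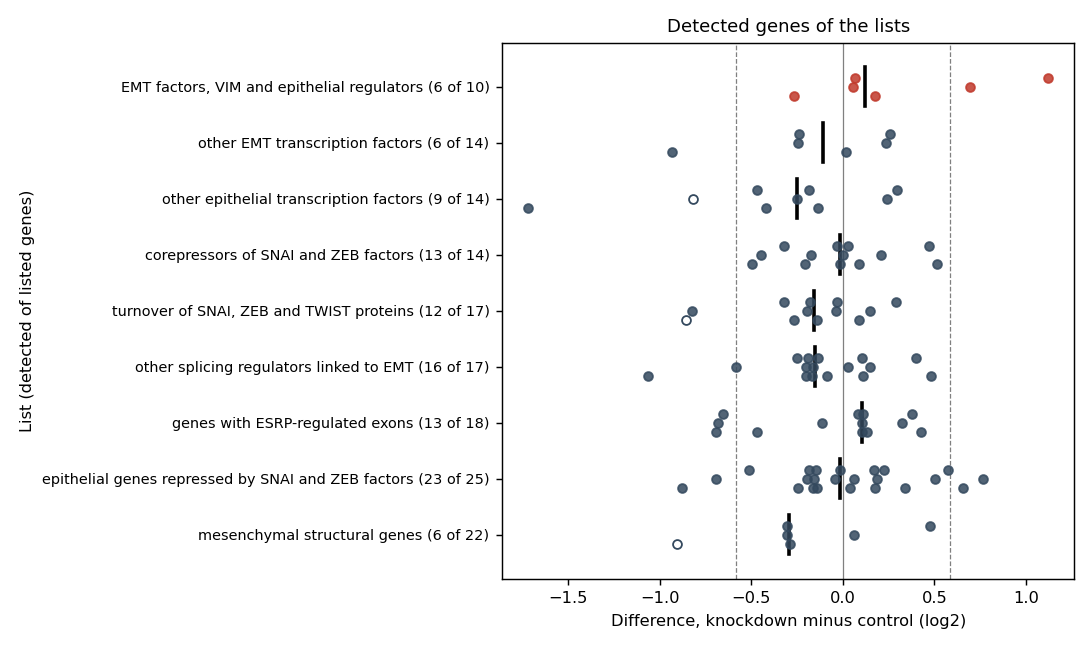
Log2 difference, knockdown minus control (horizontal axis), of each detected gene of the 10 genes (red) and of the 8 lists (dark blue) by its brightest probe, with open circles for genes detected on 1 array alone. Thick bars are list medians and dashed lines mark 1.5-fold. SNAI2 (1.12) is the furthest right and ELF5 (-1.72) the furthest left of the genes plotted.

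Corepressors that SNAI and ZEB proteins recruit showed no list member past 1.5-fold by the brightest probe, 0 of 13 detected, with a median of -0.017. The list reached from -0.50 for the methyltransferase gene EZH2 to 0.52 for AJUBA, a LIM-domain adaptor gene. CTBP2, the paralog of CTBP1, differed by 0.47 and the histone demethylase gene KDM1A by -0.21, and these 4 were chosen after their values were seen. CTBP1, a corepressor of ZEB proteins, was read unequally: its brightest probe had a deposited signal of 4672 in the knockdown and 5067 in the control, a difference of -0.030, whereas its next probe had 494 in the knockdown and 209 in the control, a difference of 1.28. Genes that act on the stability of the EMT proteins had 12 detected members of 17, with a median of -0.16. Of the 11 detected on both arrays 1 was at least 1.5-fold lower and 0 were higher. That gene, FBXW7, a ubiquitin ligase subunit, was 1.77-fold lower by its brightest probe, and a dimmer probe, detected only on the knockdown array, was at least 1.22-fold higher. FBXL14, a ubiquitin ligase subunit that acts on SNAI proteins, was at least 1.13-fold lower and detected only on the control array, with -0.38 in the deposited normalized table.

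The other splicing regulators linked to EMT had 16 of 17 members detected. By the brightest probe 1 was at least 1.5-fold lower, 0 were higher by that much and the median was -0.15. PTBP2, the neural paralog of the exon repressor PTBP1, was 2.09-fold lower, with a deposited signal of 540 in the knockdown and 1240 in the control, and its other probe was 1.78-fold lower. MBNL1, a muscleblind splicing factor, lay at the threshold by its brightest probe (-0.58), while another probe detected on both arrays differed by -0.070. QKI, a splicing regulator active in mesenchymal cells, differed by -0.20 by its brightest probe and by 0.071 by another, while a dimmer probe, detected only on the knockdown array, was at least 1.69-fold higher. RBFOX2 (0.11) and RBM47 (-0.085), splicing factors linked to the mesenchymal and the epithelial state, were near equal. RBM38 differed by 0.40 by its brightest probe and was 1.75-fold higher by its other. HNRNPA1 differed by 0.15 by its brightest probe, while a dimmer probe, detected only on the knockdown array, was at least 1.84-fold higher. MBNL1, RBFOX2, RBM47, RBM38 and HNRNPA1 were chosen after their values were seen.

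Genes whose exons ESRP proteins regulate had 13 of 18 members detected, with 3 at least 1.5-fold lower, 0 higher by the brightest probe and a median of 0.10. OSBPL3, an oxysterol-binding protein gene (1.62-fold lower), RALGPS2, a Ral exchange factor gene (1.61-fold lower), and KIF13A, a kinesin motor gene (1.58-fold lower), were the 3. In the deposited normalized table RALGPS2 (-0.54) and KIF13A (-0.33) were short of 1.5-fold. FGFR2 was not detected. CD44, the hyaluronan receptor with variable exons, was higher by every detected probe but to unequal extents. Its brightest probe, ILMN_1803429, had a deposited signal of 20526 in the knockdown and 15903 in the control, a difference of 0.43. Its next probe, ILMN_2348788, had 1790 in the knockdown and 575 in the control, a difference of 1.71, and a dim probe detected in the knockdown alone was at least 1.28-fold higher. The 3 CD44 probes are annotated to 3 different transcripts. A gap of at least 1 between the 2 brightest probes occurred in 90 of the 2497 genes with 2 probes detected on both arrays (3.60%), and CD44 and CTBP1 were among them. Which exons these probes read was not analysed here, so the unequal readings were not tied to splicing.

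**Figure D4:**
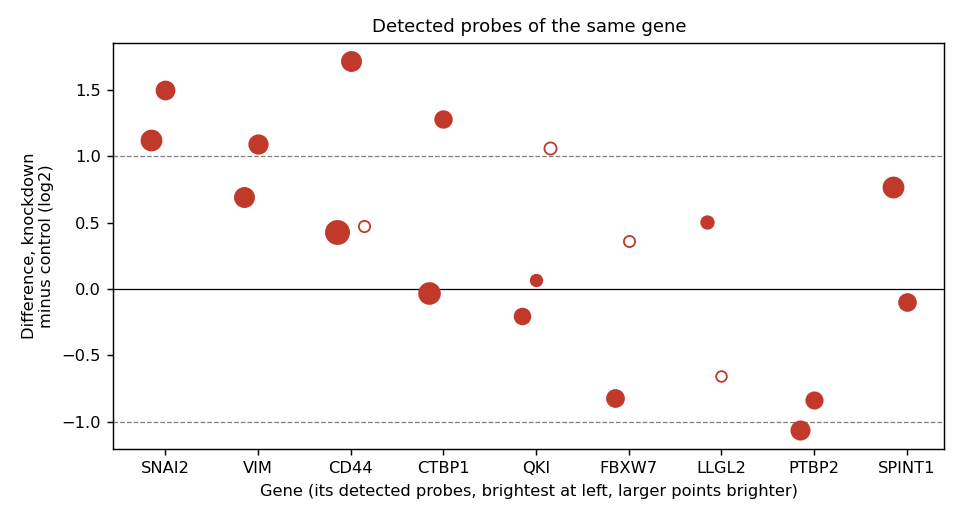
Log2 difference, knockdown minus control (vertical axis), of each detected probe of 9 genes (horizontal axis), with larger points for brighter probes and open circles for probes detected on 1 array alone. The 2 probes of SNAI2 and of VIM lie on the same side of 0, as do those of PTBP2, whereas the probes of CTBP1 lie 1.31 apart and those of CD44 up to 1.29 apart.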

How the data were processed

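Total RNA of a TEAD4 knockdown line and a control line of SNU216 cells was converted to biotin-labelled cRNA, per the labels, and each line was hybridized to 1 array. The deposited probe intensity values are linear. They had been background-subtracted, as 12895 of 47323 values are negative on the knockdown array and 12861 on the control array. Each signal column is followed by a column of deposited detection p-values, per the file headers. A separate deposited intensity table shares a single distribution between the arrays (medians 118.7 and 118.7), so it had been quantile normalized; its scale is linear and not centred, and its target distribution is unknown. No software is named for either table in the labels or headers.

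Normalized signals were computed with neqc of limma 3.58.1 in R 4.3.3, which applies a normal-exponential background correction inferred from the detection p-values, an offset of 16, quantile normalization and log2. The offset pulls folds of dim probes towards 1. The computation was tested on simulated data. Symbols came from the platform annotation (1 symbol for 30113 probes, several for 8, while 17202 are unlisted), updated by Entrez identifier, and the probe with the highest mean signal stood for its gene. Detection means a detection p-value under 0.01. A gene past a fold threshold had to be detected on the brighter array, and in the counts of the lists on both. The members and lists were chosen with earlier results of these data known. Named genes are every member with every probe, TEAD4, the 3 furthest genes of each list in either direction past 1.5-fold, and listed genes with detected probes at least 1 apart. With 1 array per group no test was run. The alternatives were another offset, 2 settings without background correction, 75th percentile scaling, the deposited table, probe averaging and a detection threshold of 0.05.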

Additional observations from a re-analysis of the deposited data

How the results depend on the processing

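No paired analysis was possible because there is 1 array per group, so no replicate could be left out either. For the 6 detected genes no difference moved by the SD per probe (0.31) under any of the 7 alternatives: SNAI2 ranged from 1.07 to 1.31, VIM from 0.68 to 0.89, TWIST1 from 0.060 to 0.069, ESRP1 from 0.055 to 0.069, GRHL2 from -0.28 to -0.24 and OVOL1 from 0.12 to 0.22. The counts of members detected, past 1.5-fold and past 2-fold were 6, 2 and 1 under each. Some of these outcomes were fixed in advance. Detection rests on the deposited detection p-values, so only the threshold of 0.05 could change the count of 6. That threshold leaves the difference of a brightest probe as it is, and averaging leaves genes with 1 detected probe unchanged. Values fixed in this way are among those counted next. Of 217 recomputed values 24 moved, past that SD over the root of the list's size for medians or by more than 1.5 times for counts, and 0 were counted as reversed. These tolerances were chosen after the data had been seen, and the causes were not tested. A change of sign within the tolerance was not counted as reversed. With 75th percentile scaling the median of the epithelial genes that SNAI and ZEB factors repress went from -0.015 to 0.0062. For the lists the counts past a fold join both directions. All counts past a fold take a gene's measured difference also where it was detected on the brighter array alone. This adds KLF5, FBXL14 and COL5A1 at the settings of the report. With an offset of 50, genes past 1.5-fold numbered 1 among epithelial transcription factors, 1 among stability genes and 0 among mesenchymal genes, and over all genes 550 were higher and 710 lower (105 and 147 past 2-fold). In the deposited table they numbered 0 among other EMT factors, 1 among epithelial factors, 1 among stability genes, 1 among ESRP-regulated genes and 0 among mesenchymal genes, and over all genes 448 higher and 530 lower (77 and 105 past 2-fold). With signals under 1 set to 1, splicing regulators past 1.5-fold numbered 3, and 399 and 511 genes were past 2-fold higher and lower. With 75th percentile scaling splicing regulators numbered 2. Averaging probes gave 1 corepressor, 1 stability gene and 3 splicing regulators past 1.5-fold, and a splicing median of -0.066. Genes near background, such as KLF5, FBXL14 and COL5A1, are limited by signal over background, and precision is limited throughout by the number of arrays.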

Other observations

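MicroRNAs of the miR-200 family and miR-205 are known to repress ZEB1 and ZEB2, whose probes were below detection on both arrays. The array carries probes for their genes, chosen here after their values were seen. Such probes read labelled cRNA from longer transcripts and not the mature microRNA. Probes of MIR200A, MIR200B, MIR200C, MIR141 and MIR429 were detected on neither array. The MIR205 probe was detected on both, with a deposited signal of 41.8 in the knockdown and 72.2 in the control, 1.48-fold lower in the knockdown (log2 difference -0.56, or -0.28 in the deposited normalized table), and both signals lie near the lowest detected signal. The mature sequences from RefSeq (GRCh38.p14) are shown with the seed, bases 2 to 8, in capitals, because the seed defines the groups: miR-200b, miR-200c and miR-429 share a seed, miR-200a and miR-141 share another, and miR-205 has its own.
hsa-miR-205-5p: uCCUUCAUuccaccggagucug
hsa-miR-200b-3p: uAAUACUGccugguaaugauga
hsa-miR-200c-3p: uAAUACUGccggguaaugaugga
hsa-miR-429: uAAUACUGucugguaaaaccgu
hsa-miR-200a-3p: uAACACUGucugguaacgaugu
hsa-miR-141-3p: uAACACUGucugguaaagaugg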
